A study of Mus musculus with 9 samples.

Results

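The genes described here are the mouse Fc gamma receptor genes Fcgr1, Fcgr2b, Fcgr3 and Fcgr4 and the adaptor genes Fcer1g and Tyrobp. They were chosen by symbol, and all 6 were present among the 12474 rows of each of the 9 libraries. The libraries are bulk RNA-seq of polyadenylated RNA from RAW264.7, a macrophage-like mouse cell line labelled wild type, in 3 groups of 3. Mock is the reference group, for which the labels list no agent, M1 cells received lipopolysaccharide (LPS) at 100 ng/ml with mouse interferon gamma at 50 ng/ml, and I cells received both agents together with potassium iodide, at 20 mM, while they polarized. The cells were grown in DMEM with fetal bovine serum, and no library received another potassium or halide salt, so effects of iodide cannot be told apart from those of potassium or of osmolarity. Nothing in the labels ties a library to its own culture, and the p-values therefore reflect a spread among libraries that may be technical.

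Fc gamma receptors bind the constant part of IgG and let macrophages engulf or attack antibody-coated targets. Fcgr1, Fcgr3 and Fcgr4 encode activating receptors whose ligand-binding chains signal through the Fc receptor gamma chain, the product of Fcer1g. That chain carries an immunoreceptor tyrosine-based activation motif (ITAM), which Src family kinases phosphorylate and to which the kinase Syk then binds. Fcgr2b encodes the inhibitory receptor, whose own inhibitory motif (ITIM) recruits the lipid phosphatase encoded by Inpp5d. Tyrobp encodes DAP12, an ITAM adaptor for other myeloid receptors such as Trem2 and not for the Fc gamma receptors.

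Of the 8 macrophage markers examined, 7 were at 13.9 FPKM or more in every library, and Mertk reached at most 0.3 FPKM. FPKM, the unit deposited by the authors, is a fragment count scaled to the length of the gene and to the total of the library. No defining marker of NK cells, T cells, or mast cells and basophils is among the rows, which hold only genes with a value above 0 in all 9 libraries. The summed FPKM of the 8 markers ran from 4587 to 4673 in Mock, from 3253 to 3367 in M1 and from 2367 to 2478 in I, and its part in the results below was not tested. Lyz2 had a large share of the fall, from at least 3111 FPKM in Mock libraries down to at most 1174 FPKM in M1 and 702 FPKM in I. Lyz2, Csf1r and Spi1 were lower in every M1 library than in every Mock library, while Adgre1, Itgam, Cd14 and Cd68 were higher, Adgre1 at 101 FPKM or more in M1 against at most 22.6 in Mock. Library totals recovered from the values ran from 17431067 to 25470728 fragments, and the 6 genes held between 246 and 8389 fragments per library. Counting error was thus 6.38% of the value at the lowest and 1.09% at the highest of these counts. In this bulk RNA, fewer cells that express a gene and less RNA per cell cannot be told apart.

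Fcgr2b, Fcgr4 and Fcgr3 are neighbours on chromosome 1 of GRCm38, within 106319 bp (170958617 to 171064935, GENCODE vM21). Fcgr2b (ENSMUSG00000026656.15) spans 170958617 to 170976547 on the minus strand, Fcgr4 (ENSMUSG00000059089.4) 171018920 to 171029761 on the plus strand, and Fcgr3 (ENSMUSG00000059498.13) 171051174 to 171064935 on the minus strand. Fcer1g (ENSMUSG00000058715.11, 171229572 to 171234365, minus strand) follows after a gap of 164636 bp. Fcgr1 (ENSMUSG00000015947.10) lies on chromosome 3, from 96282909 to 96293969 on the minus strand, and Tyrobp (ENSMUSG00000030579.10) on chromosome 7, from 30413760 to 30417585 on the plus strand. All values are of reads over the exons of these genes. Of the distinct 50-base words in the annotated Fcgr3 transcripts, 9.58% also occur in Fcgr2b transcripts, and 2.92% the other way, so a part of the reads can be shared between these 2 genes. An antisense gene, Gm38204, covers 155 bp of the Fcgr2b exons, and its reads cannot be told apart without strand, which the sources used here do not give for the counting. No other pair of the 6 genes shares a 50-base word.

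The promoters of the activating receptors are shown because their genes moved in opposite directions on polarization, Fcgr1 down and Fcgr3 and Fcgr4 up. Each line gives 250 bases before and 50 bases after the RefSeq start (GRCm38.p6), 5′ to 3′ on the strand of the gene. Fcgr3 has another RefSeq start, whose window (171059345 to 171059644) overlaps the one shown. Both windows lie inside the Fcgr3 span given above, downstream of its annotated 5′ end at 171064935. Capitals mark matches to GAGGAA on either strand, a core of sites for the myeloid factor PU.1.
Fcgr1 (chr3:96293920-96294219, minus strand): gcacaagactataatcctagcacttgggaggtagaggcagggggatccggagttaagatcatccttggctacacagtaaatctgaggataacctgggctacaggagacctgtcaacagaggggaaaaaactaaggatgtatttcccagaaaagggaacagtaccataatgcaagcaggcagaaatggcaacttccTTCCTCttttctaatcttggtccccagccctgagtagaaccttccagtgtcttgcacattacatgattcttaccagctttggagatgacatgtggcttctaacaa
Fcgr3 (chr1:171059354-171059653, minus strand): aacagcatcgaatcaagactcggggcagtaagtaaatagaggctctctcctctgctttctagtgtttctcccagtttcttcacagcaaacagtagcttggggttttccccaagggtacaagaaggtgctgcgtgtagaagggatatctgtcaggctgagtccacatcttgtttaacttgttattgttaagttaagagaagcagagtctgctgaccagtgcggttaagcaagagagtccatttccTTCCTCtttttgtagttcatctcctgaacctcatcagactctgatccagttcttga
Fcgr4 (chr1:171018676-171018975, plus strand): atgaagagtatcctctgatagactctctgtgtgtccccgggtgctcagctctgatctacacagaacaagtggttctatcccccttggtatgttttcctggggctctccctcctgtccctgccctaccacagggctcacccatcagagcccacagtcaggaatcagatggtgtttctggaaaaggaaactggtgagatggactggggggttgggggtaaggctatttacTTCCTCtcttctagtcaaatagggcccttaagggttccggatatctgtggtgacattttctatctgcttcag

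RefSeq promoters were at hand for 5 of the 6 genes, all but Tyrobp. The PU.1 core occurs in the Fcgr1, Fcgr3 and Fcgr4 promoters and in 28.3% of all 32817 promoters of the same length. Fcgr1 and Fcgr3 share the run TTCCTTCCTCTTTT of 14 bases across the PU.1 core, which 5 of the 32817 promoters hold on either strand. These 5 include the Fcgr1 promoter and both Fcgr3 promoters. The run is named because it was the longest shared by any pair of these genes. GAAA followed after any 2 bases by GAAA, a core of the interferon-stimulated response element, occurs in Fcgr4 and in 3.43% of all promoters. It overlaps there with TGGAAA, a core of sites for the osmotic factor NFAT5 that is found in 21.4% of all promoters. GGG followed after any 2 bases by TTTCC, a form of the NF-kB site, occurs in Fcgr3 and in 1.63% of all promoters, and TGANTCA, the AP-1 site (7.81% of all), in none of the 5. The Fcgr2b and Fcer1g promoters hold none of these 5 motifs, searched on both strands, in this window. These matches describe letters and do not show binding.

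M1 polarization shifted the balance of Fc gamma receptor mRNAs. Fcgr3 rose 4.14-fold, Fcgr4 2.58-fold and the shared gamma chain gene Fcer1g 2.42-fold as ratios of mean FPKM, and Tyrobp rose 1.5-fold. Fcgr1 fell to 0.705 and Fcgr2b to 0.768 of the Mock level. All 6 genes passed the test for M1 vs Mock, 4 higher and 2 lower, in a comparison where 85.8% of the 11156 tested genes did (30.5% higher and 55.3% lower). The test was limma's moderated test on log2(FPKM + 1) with Benjamini-Hochberg adjustment over all tested genes, called at an adjusted p under 0.05. The groups did not overlap for any of the 6, as for 86.4% of all tested genes (30.7% higher and 55.6% lower). The median log2 fold change was 0.93 over the 6 genes and −0.23 over all tested genes. With libraries scaled by the median of ratios (RLE), 4810 genes were called higher and 4749 lower, against 3405 and 6166 here.

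**Figure D1:**
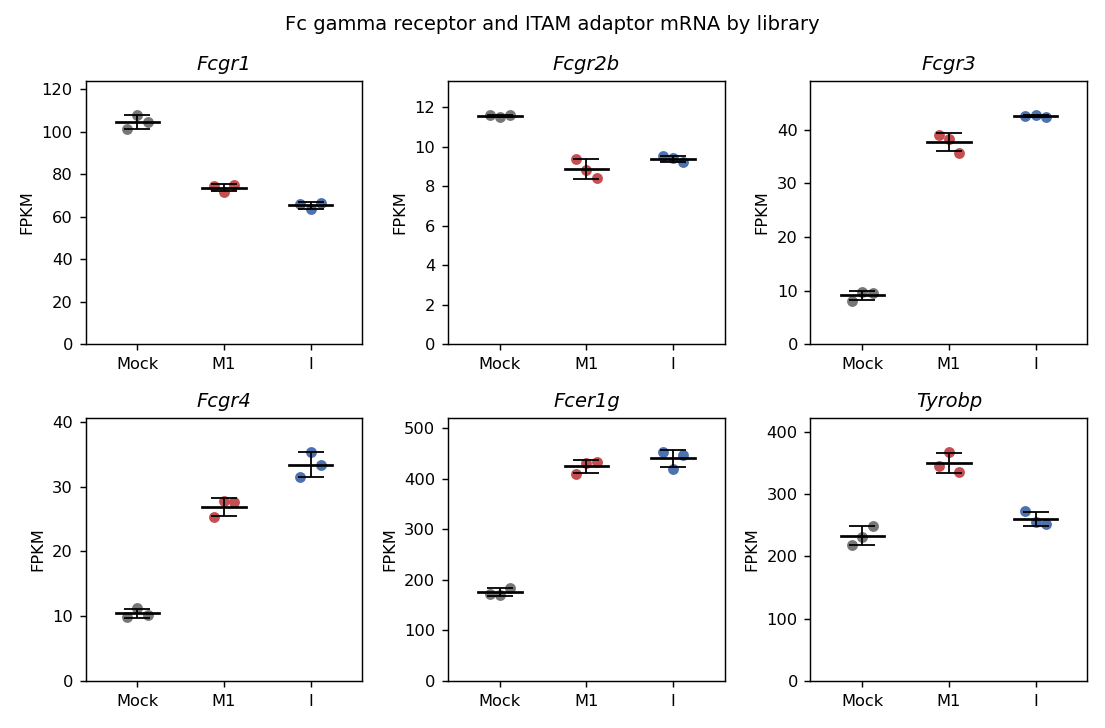
FPKM of each gene in each library of Mock, M1 and I (points), with the group mean (long bar) and SD (short bars, n = 3), each axis starting at 0. Fcgr3, Fcgr4 and Fcer1g are lower in Mock than in both polarized groups, Fcgr1 is highest in Mock, and Tyrobp is highest in M1.

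Fcgr1 encodes the high-affinity receptor CD64, known as an interferon gamma-induced gene of macrophages. It stood at 101, 108 and 105 FPKM in the Mock libraries, at 74.5, 71.8 and 74.9 in M1, and at 66.1, 63.6 and 66.4 in I. Every polarized library was below every Mock library, and the 3 I libraries were below the 3 M1 libraries. The log2 fold change for M1 vs Mock was −0.50 ± 0.031 (SE, n = 3 per group here and below), with an adjusted p of 3.02e-08. Relative to the median gene, which fell as well, it was −0.27. Of all tested genes, 36.5% had a lower value. With RLE scaling the fall was smaller and still called (−0.20, adjusted p = 6.13e-05).

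Fcgr3 encodes the low-affinity activating receptor CD16. It was at 8.05, 9.65 and 9.56 FPKM in Mock, at 38.9, 38.2 and 35.7 in M1, and at 42.5, 42.7 and 42.5 in I. The Mock libraries lay far below both polarized groups. The log2 fold change for M1 vs Mock was 1.94 ± 0.058 (adjusted p = 6.58e-11), or 2.17 above the median gene, and 98.3% of tested genes had a lower one. Fcgr4, the activating receptor of mice that binds some IgG subclasses with intermediate affinity, was at 9.88, 11.2 and 10.2 FPKM in Mock. It reached 25.3, 27.8 and 27.7 in M1 and 31.5, 35.4 and 33.3 in I, so the 3 groups were again in separate ranges. Its log2 fold change for M1 vs Mock was 1.29 ± 0.056 (adjusted p = 1.52e-09).

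Fcgr2b, the inhibitory receptor gene, was at 11.6, 11.5 and 11.6 FPKM in Mock, at 9.38, 8.82 and 8.41 in M1, and at 9.5, 9.41 and 9.2 in I. The M1 and I ranges overlapped, and both lay below Mock. For M1 vs Mock the log2 fold change was −0.35 ± 0.04 (adjusted p = 7.63e-06), and −0.12 relative to the median gene. With RLE scaling, which moved the median change of all genes from −0.23 to 0.0082, the fall of Fcgr2b was 0.073 and was not called (adjusted p = 0.118). The other 5 genes were still called under that scaling, each in the same direction.

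Fcer1g, the ITAM-bearing gamma chain, was at 171, 170.0 and 184 FPKM in Mock, at 410.1, 431 and 432 in M1, and at 453, 419.9 and 447 in I. Both polarized groups stood well above Mock and overlapped each other. The log2 fold change for M1 vs Mock was 1.27 ± 0.04 (adjusted p = 9.93e-11). Tyrobp was at 218, 231 and 249 FPKM in Mock, at 345, 367 and 336 in M1, and at 272, 255 and 252 in I. Its M1 libraries were above all others, and each I library was above each Mock library by a small margin. For M1 vs Mock its log2 fold change was 0.58 ± 0.05 (adjusted p = 6.15e-07), and it was 0.21 with quantile scaling, where it was still called.

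**Figure D2:**
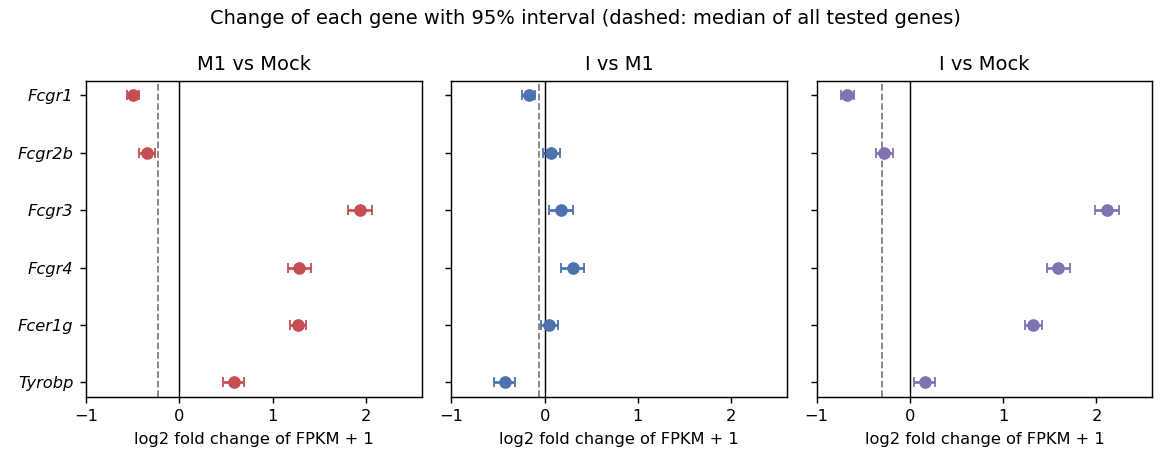
Log2 fold change of FPKM + 1 (horizontal axis) of each gene in the 3 comparisons, with the 95% interval of the limma fit, a solid line at 0 and a dashed line at the median of all tested genes. Fcgr3, Fcgr4 and Fcer1g lie far to the right in both comparisons with Mock, while all 6 genes lie within 0.43 of 0 for I vs M1.

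With potassium iodide during polarization, genes of the set moved in both directions. Tyrobp fell to 0.743 of its M1 level and Fcgr1 to 0.886, while Fcgr4 rose 1.24-fold and Fcgr3 1.13-fold. Of the 6 genes 4 passed the test for I vs M1, 2 higher and 2 lower, where 64.2% of all tested genes did (24.9% higher and 39.3% lower). The groups did not overlap for these same 4 genes, against 67.2% of all tested genes (26.4% higher and 40.8% lower). The median over the 6 genes was 0.062, and −0.065 over all tested genes. With RLE scaling 3478 genes were called higher and 3540 lower, against 2775 and 4382 here.

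Tyrobp changed by −0.43 ± 0.05 on the log2 scale (adjusted p = 2.85e-05), and 11.2% of tested genes had a lower value. With quantile scaling its change was −0.26 (adjusted p = 0.000661). Fcgr1 changed by −0.17 ± 0.031 (adjusted p = 0.000573), and by −0.098 with RLE scaling (adjusted p = 0.0132). Fcgr4 rose by 0.30 ± 0.056 (adjusted p = 0.000746). The rise of Fcgr3 was 0.17 ± 0.058 (adjusted p = 0.0216), and it was not called without M1 replicate 3 (adjusted p = 0.0843) or without I replicate 2 (adjusted p = 0.0504).

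Fcer1g and Fcgr2b did not pass for I vs M1. The log2 difference of Fcer1g was 0.052, with a 95% interval from −0.036 to 0.14 (adjusted p = 0.277). That of Fcgr2b was 0.072, with an interval from −0.016 to 0.16 (adjusted p = 0.137). Both were called higher with RLE scaling (adjusted p = 0.019 for Fcer1g and 0.0118 for Fcgr2b) and with quantile scaling (0.0132 and 0.0242). For Fcgr2b the same held with upper quartile scaling (adjusted p = 0.0396) and without M1 replicate 1 (adjusted p = 0.0271).

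I and Mock were also compared, with the I and Mock libraries already used above, so these values are not independent of the others. All 6 genes passed, 4 higher and 2 lower, where 86.8% of all tested genes did (28.2% higher and 58.6% lower). With RLE scaling 4762 of all genes were called higher and 4785 lower, against 3146 and 6534 here. The groups did not overlap for any of the 6, as for 87.1% of all tested genes (28.5% higher and 58.6% lower). Fcgr3 was 4.68-fold, Fcgr4 3.2-fold and Fcer1g 2.51-fold the Mock level, and Fcgr1 was at 0.625 of it. The log2 fold change of Fcgr1 was −0.67, and it was −0.30 with RLE scaling and −0.46 with upper quartile scaling, called in each. Tyrobp was 1.11-fold the Mock level, a log2 fold change of 0.16 ± 0.05 (adjusted p = 0.0125). That call was lost without Mock replicate 1 (adjusted p = 0.0556) and without I replicate 1 (adjusted p = 0.0538), and the sign turned with quantile scaling (−0.055, adjusted p = 0.29). Fcgr2b was at 0.811 of the Mock level (log2 fold change −0.28 ± 0.04, adjusted p = 5.25e-05), 0.022 above the change of the median gene. Its sign turned with RLE scaling (0.068, adjusted p = 0.143) and with quantile scaling (0.0086, adjusted p = 0.842), and its call was also lost with upper quartile scaling (−0.081, adjusted p = 0.082).

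The order of the levels, which FPKM allows to be compared per length, also differed between groups. In Mock the order was Tyrobp (233 ± 15 FPKM, mean ± SD), Fcer1g (175 ± 8), Fcgr1 (105 ± 3.2), Fcgr2b (11.6 ± 0.036), Fcgr4 (10.4 ± 0.71) and Fcgr3 (9.09 ± 0.9). In M1 it was Fcer1g (424 ± 12), Tyrobp (349 ± 16), Fcgr1 (73.8 ± 1.7), Fcgr3 (37.6 ± 1.7), Fcgr4 (26.9 ± 1.4) and Fcgr2b (8.87 ± 0.49). In I the order was that of M1, with Fcer1g at 440.0 ± 18, Tyrobp at 260 ± 11 and Fcgr2b last at 9.37 ± 0.15. Neighbours in each order did not overlap in their library ranges, though Fcgr2b, Fcgr4 and Fcgr3 were close in Mock. The order depends on the length used. Fcgr2b is scaled by 5790 bp of summed exons while its longest transcript has 3544 bp, and with longest transcripts as lengths the order in Mock ended Fcgr2b (18.9), Fcgr3 (11.7) and Fcgr4 (10.4).

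In FPKM without further scaling, the sum of the activating receptors changed little compared with its make-up. Fcgr1, Fcgr3 and Fcgr4 together held 119, 129 and 125 FPKM in the Mock libraries, 139, 138 and 138 in M1, and 140.2, 142 and 142 in I. Fcgr1 made up 84.3% ± 0.62 of that sum in Mock, 53.3% ± 1.1 in M1 and 46.3% ± 1.2 in I, with no overlap between groups. These sums and the ratios below combine genes already described, so they are given without a test. The sums depend on the scaling of the libraries and were not recomputed with other scalings. With RLE scaling the M1 vs Mock log2 fold changes of the 3 genes were all higher. That of Fcgr1 went from −0.50 to −0.20, that of Fcgr3 from 1.94 to 2.22 and that of Fcgr4 from 1.29 to 1.57.

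Fcgr3 and Fcgr4 summed stood against the inhibitory Fcgr2b at 1.55, 1.81 and 1.71 in Mock, at 6.85, 7.48 and 7.54 in M1, and at 7.8, 8.29 and 8.23 in I. With Fcgr1 added to the activating side, the ratio was 10.7 ± 0.43 in Mock, 15.6 ± 0.83 in M1 and 15.1 ± 0.35 in I, where M1 and I overlapped. Fcer1g per summed activating receptor was 1.44, 1.32 and 1.48 in Mock, 2.96, 3.12 and 3.13 in M1, and 3.23, 2.96 and 3.15 in I. The Mock libraries were lowest, and the M1 and I libraries overlapped. Fcer1g per Tyrobp, the ratio of the adaptors, was 0.753 ± 0.027 in Mock, 1.22 ± 0.063 in M1 and 1.7 ± 0.071 in I, again in separate ranges.

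**Figure D3:**
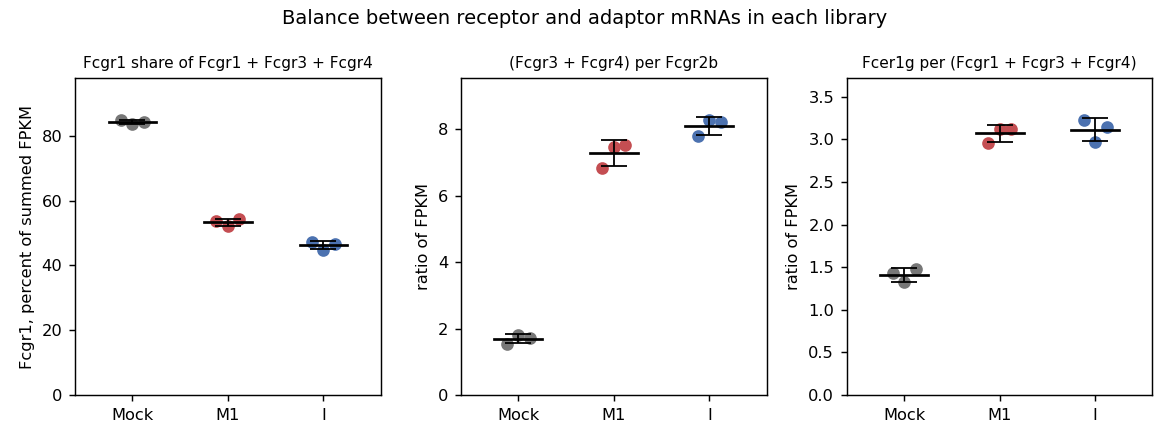
Share of Fcgr1 in the summed FPKM of Fcgr1, Fcgr3 and Fcgr4 (percent), ratio of Fcgr3 plus Fcgr4 to Fcgr2b, and ratio of Fcer1g to the 3 activating receptors, for each library (points) with mean and SD (n = 3). The Fcgr1 share steps down from 84.3% in Mock to 53.3% in M1 and 46.3% in I, while both ratios are lowest in the Mock libraries.

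Genes with the most similar pattern were found by the root mean square difference of log2(FPKM + 1) over the 9 libraries, each gene centred on its mean, among 11156 tested genes. Nearest to Fcgr1 were Pcbp1, an RNA-binding protein gene (difference 0.0092; 166, 117 and 103 FPKM in Mock, M1 and I), and Atxn7l3b (0.026). Nearest to Fcgr3 were Faah, a fatty acid amide hydrolase (0.078; 0.393, 4.01 and 4.67 FPKM), and the methionine sulfoxide reductase gene Msrb1 (0.087; 14, 58.9 and 67.9 FPKM). Adding 1 to FPKM damps the change of a gene as low as Faah in Mock. For Fcgr4 they were the kinase gene Rps6ka4 (0.058) and Tpd52 (0.06), and for Fcer1g Zbtb7b (0.036) and Pea15a (0.039). Casp8 (0.027) and the actin capping gene Capza2 (0.03) were nearest to Fcgr2b, and the ribosomal protein gene Rpl34 (0.047) and Ppt2 (0.049) to Tyrobp. None of the 6 genes was among these neighbours of another. Fcgr4 and Fcer1g were the closest pair, at 0.151, and 100 genes lay nearer to Fcgr4 than Fcer1g did.

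Other Fc receptor and Fc receptor-like genes were sparse in the files, with 3 of 12 present. Trim21, a cytosolic Fc receptor, fell from 13.2 ± 0.34 FPKM in Mock to 3.16 ± 0.24 in M1 (limma adjusted p = 2.86e-11) and was higher again in I, at 4.56 ± 0.062 (adjusted p = 2.09e-05). The Fc receptor-like gene Fcrl1 fell from 17.9 ± 0.49 to 10.8 ± 0.17 in M1 and to 9.45 ± 0.31 in I. The neonatal Fc receptor gene Fcgrt was at 1.63 ± 0.1, 1.44 ± 0.21 and 0.979 ± 0.27 FPKM in Mock, M1 and I. Its level in I was called lower than in M1 (adjusted p = 0.0161) and than in Mock (adjusted p = 0.00177). M1 vs Mock was not called (adjusted p = 0.306). The difference between I and Mock depended on the scaling. Under RLE the log2 fold change was −0.21 and did not pass (adjusted p = 0.0712). Under quantile scaling it shrank to −0.031 (adjusted p = 0.775), while Fcgrt was there called higher in M1 than in Mock (0.24, adjusted p = 0.039).

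The list of receptors that pair with an ITAM adaptor pools partners of the gamma chain and of DAP12, which were not counted apart. Of 11 tested genes in that list, which includes the adaptor gene Hcst, 5 rose and 5 fell in M1. Hcst was the gene not called, and the median log2 fold change of 0.18 was its value. Clec4e, which encodes Mincle and signals through the gamma chain, rose from 38.9 ± 1 FPKM to 212 ± 6.5 in M1 and fell to 135 ± 2.1 in I. Trem2, a lipid-sensing receptor that signals through DAP12, fell from 19.7 ± 0.61 to 1.34 ± 0.24 FPKM in M1 and to 0.478 ± 0.0076 in I, while Tyrobp rose in M1. Trem3, another DAP12 partner, fell from 8.66 ± 0.29 to 2.19 ± 0.42. For I vs M1, 3 genes of the list rose and 3 fell. Clec4d rose 1.08-fold and Cd300lb 1.09-fold. The third gene that rose was Trem1, a DAP12-paired receptor gene named after its values were seen, at 1.38 ± 0.13 FPKM in M1 and 4.42 ± 0.27 in I (3.2-fold, adjusted p = 7.14e-08). Besides Trem2 and Clec4e, Clec4n fell, from 2.91 ± 0.38 to 1.08 ± 0.24 FPKM, and was likewise named after its values were seen. The adaptor gene Hcst, next to Tyrobp in the genome, was at 4.42 ± 0.67, 5.13 ± 0.54 and 4.57 ± 0.71 FPKM, and neither change was called. With RLE scaling its M1 level was called higher than Mock (adjusted p = 0.00398).

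The kinases that act at the ITAM changed in both directions in M1. Of 9 tested Src, Syk and Tec family genes, 4 rose and 5 fell, with a median of −0.086, and 5 rose and 2 fell with RLE scaling. Syk rose from 6.09 ± 0.21 to 24.3 ± 0.5 FPKM (limma log2 fold change 1.83 ± 0.033, adjusted p = 1.67e-12) and further to 38.9 ± 0.92 in I (adjusted p = 5.13e-08). Src rose from 0.356 ± 0.06 to 11.9 ± 0.22 in M1 and fell to 7.92 ± 0.4 in I. Lyn, a main Src family kinase of Fc receptor signalling, rose from 80.0 ± 0.38 to 102 ± 1 in M1 and was not called for I vs M1, at 100.3 ± 0.65. Fgr fell from 9.2 ± 0.41 to 3.58 ± 0.21 in M1. For I vs M1, 2 of the 9 rose and 4 fell, and Tec rose from 12.9 ± 0.13 to 21.3 ± 0.45 FPKM. With RLE scaling Lyn was called higher in I than in M1 (adjusted p = 0.0492).

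**Figure D4:**
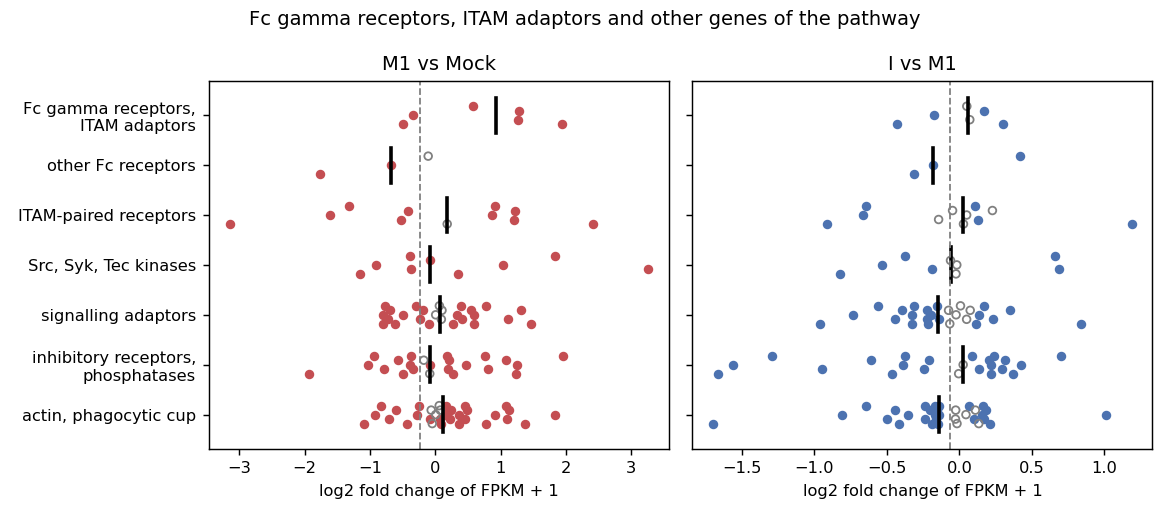
Log2 fold change of FPKM + 1 of the 6 genes (M1 vs Mock, left, and I vs M1, right) and of 6 lists of pathway genes. Filled points passed the test, open points did not, bars are list medians and the dashed line is the median of all tested genes. In each list with more than 3 tested genes, points lie on both sides of 0.

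Downstream adaptors, lipases and lipid kinases went both ways in M1, with 11 of 26 higher and 11 lower (median 0.078). RLE scaling gave 18 higher and 7 lower genes. The scaffold gene Gab2 rose from 10.6 ± 0.19 to 31 ± 0.89 FPKM, the PI3-kinase adaptor gene Pik3ap1 from 41.3 ± 0.18 to 104 ± 1.3, and Malt1 from 5.3 ± 0.3 to 12.7 ± 0.63. In I vs M1, 6 rose and 14 fell (median −0.14). Malt1 fell to 6.05 ± 0.2 and Sh3bp2 from 17.3 ± 0.53 to 11.4 ± 0.09, while the Ras exchange factor gene Sos1 rose from 3.58 ± 0.16 to 7.2 ± 0.29.

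The inhibitory arm also moved in both directions. Of 23 tested inhibitory receptor and phosphatase genes, 11 rose and 10 fell in M1 (median −0.078), and for I vs M1 the counts were again 11 and 10 (median 0.026). Inpp5d, whose product SHIP1 binds the inhibitory receptor, rose from 21.2 ± 1.4 to 24.5 ± 0.76 FPKM in M1 (limma adjusted p = 0.00145) and to 28.7 ± 0.75 in I (adjusted p = 0.00152). Ptpn6, the phosphatase SHP-1, rose from 123 ± 1.7 to 170.4 ± 2.9 in M1 and fell to 131 ± 4.2 in I. The ITIM receptor gene Cd300lf rose from 3.98 ± 0.24 to 18.3 ± 0.39 in M1 and fell to 6.86 ± 0.18 in I. Cd300a fell in M1 from 6.16 ± 0.44 to 0.874 ± 0.086. Lilr4b, on the list though its product lacks an ITIM, rose from 108 ± 2.1 to 256 ± 12 in M1. Its reads can be shared with those of its close paralog Lilrb4a. Clec12a fell with iodide from 20.4 ± 0.64 to 5.76 ± 0.14. Siglec1, a sialic acid-binding receptor without an ITIM of its own, fell from 62.7 ± 2.7 to 20.7 ± 1.1 FPKM.

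Actin and phagocytic cup genes rose more often than they fell in M1, 18 against 9 of 32 (median 0.12). Of all tested genes, 30.5% were called higher and 55.3% lower. The counts were 24 against 6 with RLE, 23 against 7 with upper quartile and 15 against 12 with quantile scaling. The GTPase genes Rac2 (174 ± 4.4 to 382 ± 6.8 FPKM) and Rhog (54.3 ± 2.2 to 117 ± 3.7) rose, as did the actin regulator Coro1a (238 ± 5.2 to 617 ± 27). In I vs M1, 8 rose and 18 fell (median −0.14), where 24.9% of all tested genes were called higher and 39.3% lower. The counts were 11 and 15 with RLE, 11 and 17 with upper quartile, and 11 and 12 with quantile scaling. Myo1f, a myosin of phagocytes, fell from 22.1 ± 0.073 to 6.15 ± 0.048 FPKM and Marcksl1 from 261 ± 12 to 148 ± 3, while its relative Marcks rose from 2.69 ± 0.39 to 6.44 ± 0.66. No list was tested as a whole, and these shares of all tested genes are the background for the counts of the other lists too.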

How the data were processed

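Poly(A) RNA-seq libraries of RAW264.7 cells were processed by the submitters. The deposited values are FPKM, a unit that their headers leave out and that was recognised as described next. The submitters' processing notes list HISAT2 2.2.1, fastp 0.20.1 and featureCounts 2.0.1, and the build GRCm38. Tool settings, strand use and gene annotation: not given in the sources used here. FPKM times summed exon length (GENCODE vM21, matched for 12204 rows) gave whole fragments, within 0.05, for all 6 genes in all libraries. This also gave the library totals.

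Values were analysed as log2(FPKM + 1) with limma 3.58.1 in R 4.3.3, in 1 model over 9 libraries with a term per group and an intensity trend. Rows with at least 0.5 FPKM in at least 3 libraries were tested, 11156 in all, and all 6 genes passed. The alternatives were RLE, upper quartile and quantile scaling, a pseudocount of 0.1, other filters, limma-voom on recovered fragments, 2-group fits, a replicate block and leaving out each library. The genes and lists were chosen with earlier results of these data known. Named besides the 6 are key genes of the pathway, up to 3 genes per list with the largest called change (M1 vs Mock, I vs M1), among genes whose groups did not overlap and whose higher group averaged 5 FPKM or more, and the 2 genes most alike to each. The lengths of longest transcripts and the ratio of Fcgr3 and Fcgr4 to Fcgr2b were added after the data were seen. In every pair of libraries of a group the mean chi-square per gene was 2.02 or more, which leaves no sign of a library deposited 2 times.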

Additional observations from a re-analysis of the deposited data

How the results depend on the processing

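Across 18 alternatives, 324 fold changes of the 6 genes were recomputed. Of these, 309 kept their direction and side of the threshold, 6 lost a call, 6 gained one and 3 changed sign. The sign changes were all for I vs Mock, those of Fcgr2b with RLE (0.068) and quantile scaling (0.0086) and of Tyrobp with quantile scaling (−0.055). Counts of called genes in both directions together stayed within 1.5 times. By direction, the genes called higher for I vs Mock went from 3146 to 4762 with RLE scaling, and those of the 6 called higher for I vs M1 from 2 to 4 with RLE or quantile scaling and to 1 without M1 replicate 3 or without I replicate 2. With longest transcripts as lengths, a choice made after the data were seen, the mean ratios in Mock, M1 and I became 6.72, 10.3 and 10.0 for activating receptors per Fcgr2b, and 1.17, 5.21 and 5.76 for Fcgr3 plus Fcgr4 per Fcgr2b. For Fcer1g per activating receptor they became 1.77, 3.64 and 3.67, and for Fcer1g per Tyrobp 0.862, 1.39 and 1.94. The Fcgr1 share became 82.5%, 49.5% and 42.6%. The order of group means was the same for each ratio. Replicate numbers are shared by the groups, but same-numbered libraries did not deviate together (correlations −0.115 to 0.0474), and with the replicate block 4 of the 6 genes were called for I vs M1 and 6 for each comparison with Mock. Genes at 0 in any library are not in the files.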
